A study of Homo sapiens with 6 samples.

Results

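Chromosome 20 was examined in 6 Hi-C contact maps of 4 human cancer cell lines, by taking every pair of 40-kb bins with both bins on that chromosome. The chromosome holds 1576 bins of the 75918 on the autosomes and chromosome X, which gives 1241100 possible pairs of different bins. A value was present at 477342 of these pairs in SW480, 452930 in SNU-C1, 533545 in OE33 and 269062 in HCC1954. SW480 and SNU-C1 are colon cancer lines derived from colorectal adenocarcinoma, HCC1954 is a breast cancer line and OE33 an esophageal adenocarcinoma line. No line was treated, and each is a single established tumor line without a matched normal sample. SW480 had replicate maps 1 and 2 and a map without a number, whose recovered read pairs were those of replicate 1 plus replicate 2 at 99.97% of bin pairs on chromosome 20. It is called the pooled map below. The other lines had 1 map each, so differences between lines carry no p-value, and both SW480 replicates are given as the only measure of spread. The study calls its Hi-C replicates biological and describes duplicates for each experiment, without saying how the map of each other line was made from its duplicates.

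Hi-C joins and sequences pieces of DNA that lie near each other in the nucleus, so a bin's read pairs rise in number with the number of copies of that bin in the cells. Extra copies of the long arm, 20q, are frequent in colorectal cancer, and the arm carries genes of mitosis, cell survival and epithelial identity. Contacts fall steeply with distance along a normal chromosome. Where a tumor chromosome is joined in a new order, bins that are far apart in the reference come close together and their contact rises far above what that distance gives. At larger scale, chromatin separates into an active, gene-rich compartment and an inactive, gene-poor one, and at smaller scale into topologically associating domains (TADs), whose boundaries are often occupied by the protein CTCF.

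The deposited values are contact frequencies after iterative correction, which divides each number of read pairs by a factor for each bin. The read pairs behind them were recovered, and all values tested on chromosome 20 came out whole within 0.02 in every map. Between 1921877 (HCC1954) and 3793667 (SNU-C1) read pairs lay within chromosome 20 in a line map, and 1792365 and 1829872 in the SW480 replicates. The median bin had 4956 read pairs in SW480, 5181 in SNU-C1, 4653 in OE33 and 2414 in HCC1954. The short arm, 20p, was taken as the bins before the longest run without values, chr20:26320001-29400000, and 20q as the bins after it. Bins were called usable if their coverage reached 0.25 of the median in all 4 lines, which held for 572 of 658 bins on 20p and 801 of 841 on 20q. The arms differed in composition. The median usable bin of 20q had 107 MboI sites and a GC content of 45.4%, against 98 sites and 40.8% on 20p and 98 sites and 39.8% over the autosomes.

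Positions that recur below are shown first as reference sequence (GRCh37, 5′ to 3′ on the strand given). They are the matches to a short form of the CTCF core, AGGGGGCGC or AGGTGGCGC on either strand, that lie nearest to the middle of a boundary found in all 4 lines or of the bins joined by a contact seen in SW480 on 20p. Capitals mark the core.
RRBP1 intron at the first end of the SW480 contact, chr20:17614614-17614678, minus strand: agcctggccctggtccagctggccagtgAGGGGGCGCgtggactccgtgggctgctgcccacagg
ZFP64 intron at a boundary of all 4 lines, chr20:50807934-50807998, minus strand: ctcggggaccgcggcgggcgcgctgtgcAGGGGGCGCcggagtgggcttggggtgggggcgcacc
SRSF6 intron at a boundary of all 4 lines, chr20:42087491-42087555, plus strand: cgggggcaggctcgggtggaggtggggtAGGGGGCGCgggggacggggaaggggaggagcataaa
The 3 bins around the second end of the contact, inside SLC24A3, and those around the boundary at 6.08 Mb in FERMT1 held 0 matches. Chromosome 20 held 408 matches, 221 on the plus and 187 on the minus strand. A match lay within 1 bin of 47.8% of 1373 usable bins and of 45.7% of 35 boundaries of all 4 lines, and of 57.1% of 21 boundaries found in 1 line. These shares were not tested against each other.

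Coverage was compared first, because copies of an arm raise all of its values. Coverage counts a bin's read pairs with its own chromosome, and it is given over the median of autosomal bins of the same map with a like number of MboI sites and a like GC content, so that 1 is the typical autosomal bin of that map. On this scale 20q stood at 1.41 in SW480 (1.42 and 1.41 in replicates 1 and 2), 2.15 in SNU-C1, 1.73 in OE33 and 1.0 in HCC1954. The short arm stood at 1.20 in SW480 (1.19 and 1.20 in the replicates), 1.36 in SNU-C1, 1.67 in OE33 and 1.03 in HCC1954. Both colorectal lines thus had more coverage on 20q than on 20p, by 1.18 times in SW480 (1.19 and 1.17 in the replicates) and 1.58 times in SNU-C1. Set against the other lines, as below, the ratio was 0.92 in SW480 and 1.33 in SNU-C1, so the direction of SW480 depends on the reference. In OE33 the arms were nearly level, at 1.04 times, and 20q and 20p were first and second from the top of its 39 autosomal arms. Among the same 39 arms 20q ranked 3 from the top in SW480, 2 in SNU-C1 and 21 in HCC1954, while 20p ranked 7, 5 and 17. More copies in every cell and copies in a larger part of the cells cannot be told apart in such bulk maps, and the scale gives no whole number of copies.

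**Figure D1:**
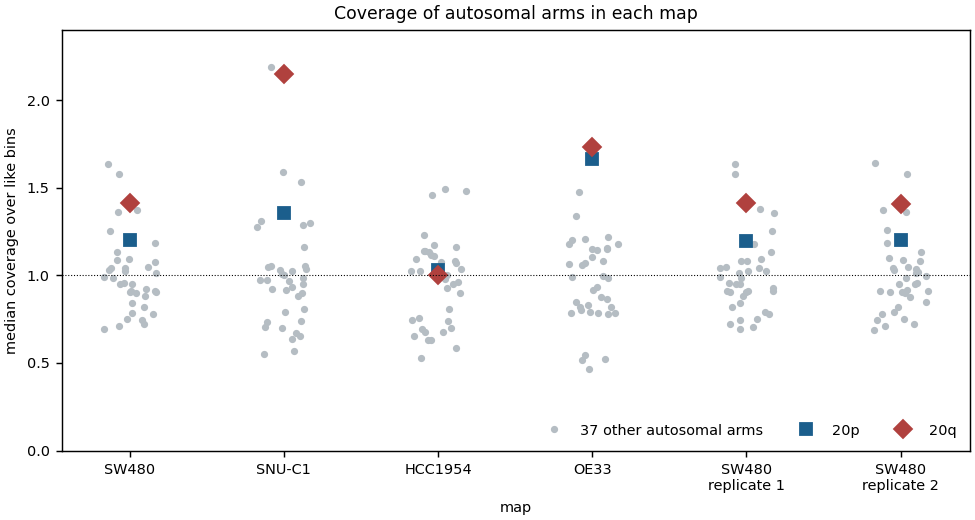
Median coverage of each autosomal arm over like bins of the same map (y axis, 1 is the typical autosomal bin) in the 6 maps (x axis). Squares mark 20p, diamonds 20q and grey points the other arms, and 20q stands at 1.41, 2.15, 1.0 and 1.73 in SW480, SNU-C1, HCC1954 and OE33.

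Set against the other 3 lines instead of against its own autosomes, the same coverage gave a different order. Relative coverage, the coverage of a bin over the median of the other lines, was 0.80 on 20q and 0.87 on 20p in SW480, 1.31 and 0.98 in SNU-C1, 0.53 and 0.79 in HCC1954 and 1.31 and 1.38 in OE33. By the limits used here, at most 0.8 or at least the inverse of 0.8, 20q counted as higher in SNU-C1 and OE33 and as lower in SW480 and HCC1954. Both higher calls were lost when read pairs with other chromosomes were added, at 1.19 in SNU-C1 and 1.2 in OE33. Over all autosomal arms, the same call was made for 12.8% as higher in SNU-C1, 25.6% as higher in OE33, 10.3% as lower in SW480 and 30.8% as lower in HCC1954. The direction of SW480 thus turned with the reference, as 3 of 4 lines carried 20q above their own autosomes and SW480 was the lowest of those 3. Its value lay just under the limit and was 0.87 when the mean over bins replaced the median.

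Levels within the arms were found by fitting steps to the coverage, with at least 20 usable bins to a level. SW480 and OE33 had 3 steps each, SNU-C1 4 and HCC1954 8, and both SW480 replicates had their steps in the same bins as the pooled map. In SW480 coverage was 1.18 from the tip of 20p to 17.96 Mb, 0.81 from there to 19.36 Mb, 1.44 from 19.36 Mb across the centromere to 59.16 Mb, and 0.98 in the last stretch of 20q. The high level of SW480 thus began on 20p and not at the centromere. In SNU-C1 coverage was 1.31 to 8.68 Mb and 1.64 from 8.68 to 12.28 Mb on 20p. It was 1.30 from 12.28 to 35.4 Mb and 2.34 from 35.4 to 58.96 Mb, followed by 1.75 to the end of the arm. The part of 20q before 35.4 Mb was therefore level with the adjoining part of 20p in SNU-C1.

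HCC1954 had the widest range, from 0.42 between 15.24 and 30.08 Mb to 2.65 between 54.72 and 60.16 Mb, which is 6.38 times. Its 20p held a level of 1.49 from 1.2 to 12.28 Mb beside the low stretch, so that the arm's median near 1 averaged over opposite levels. The low stretch is understated by this figure. On 20p, 65 bins between 16.88 and 26.2 Mb fell under the coverage minimum in HCC1954 alone and were left out for all lines. A further 25 such bins, also left out, lay on 20q between 34.88 and 62.76 Mb, outside the low stretch. Of all 90, 61 had no value at all in that map. In OE33 the levels ran only from 1.36 to 1.84. Its lower level between 53.32 and 54.96 Mb and its fall after 58.76 Mb had counterparts in other lines. HCC1954 had a fitted low level near the first of these stretches, while SW480 and SNU-C1 had no step there. The lines read 1.04, 1.87, 0.80 and 1.36 in SW480, SNU-C1, HCC1954 and OE33 between 53.32 and 54.96 Mb. The relation of these low stretches to sequence or mapping was not tested.

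**Figure D2:**
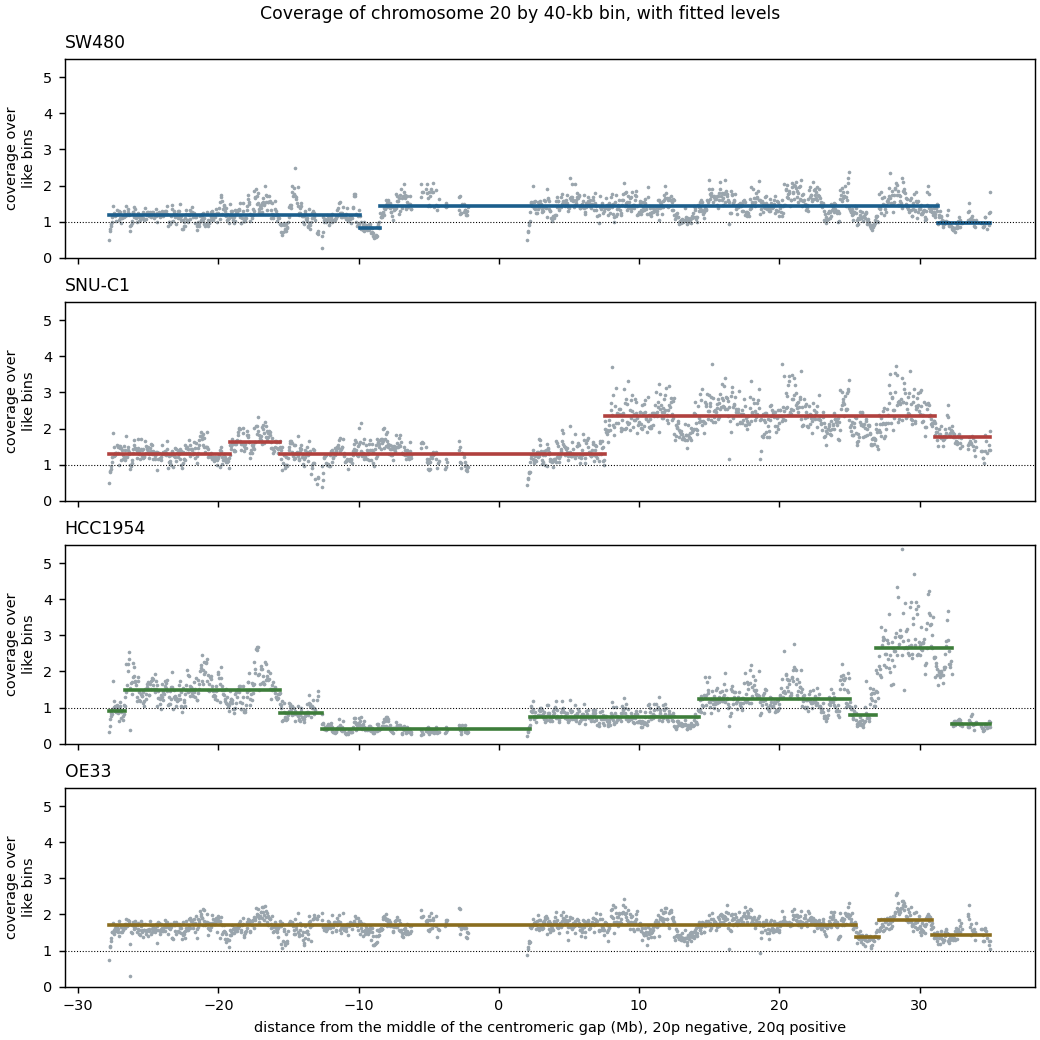
Coverage over like bins (y axis) of every usable 40-kb bin of chromosome 20 (grey points) against the distance from the middle of the centromeric gap in Mb (x axis), with the fitted levels as bars, for the 4 lines. The bars step up on 20p in SW480, within 20q in SNU-C1 (1.30 to 2.34) and several times in HCC1954 (0.42 to 2.65), and stay between 1.36 and 1.84 in OE33.

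The genes of 20q were then read from 1-Mb windows at their starts, for a list of 23 genes that are known from gains of this arm or from epithelial biology. All were measured in every line. Their median coverage over like bins was 1.41 in SW480, 1.90 in SNU-C1, 1.78 in OE33 and 0.80 in HCC1954. The gene with the highest value was PTPN1, a tyrosine phosphatase, in SW480 (1.78) and SNU-C1 (2.70), GNAS, the stimulatory G protein alpha subunit, in HCC1954 (2.80) and TOP1, DNA topoisomerase I, in OE33 (1.90). The lowest values were those of PTK6, an epithelial tyrosine kinase, in SW480 (0.97), of DNMT3B, a DNA methyltransferase, in SNU-C1 (1.14) and of SOX18, a vascular transcription factor, in HCC1954 (0.46) and OE33 (1.34). Genes that lie close together share most of a window, so these are not independent readings. The windows of PTK6 and SOX18 held 14 and 13 usable bins, against 25 at PTPN1, GNAS, TOP1 and DNMT3B. PTK6 and SOX18 lie in the last stretch of 20q, where the fitted level fell in every line.

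The step inside 20q of SNU-C1 split the list. BCL2L1, an inhibitor of apoptosis at chr20:30252255-30311792, read 1.17 in SNU-C1 and 1.39 in SW480 (1.4 and 1.37 in the replicates). TPX2, a factor of spindle assembly, read 1.18 in SNU-C1 and 1.41 in SW480. SRC, the tyrosine kinase at chr20:35973088-36034453, read 2.23 in SNU-C1 and 1.42 in SW480 (1.41 and 1.43). HNF4A, a transcription factor of intestinal and liver epithelium at chr20:42984339-43061485, read 2.51 in SNU-C1 and 1.63 in SW480 (1.64 and 1.64). BCL2L1 and TPX2 thus read lower in SNU-C1 than in SW480, and SRC and HNF4A higher, with 1 map of SNU-C1 and no measure of its spread. In relative coverage, 7 of the 23 genes were at most 0.8 in SNU-C1, against 20.3% of 1-Mb windows of the autosomes, and 7 reached the upper limit, against 18.2%. Those 7 low genes ran from BCL2L1 to E2F1, the cell cycle transcription factor at 32.3 Mb. In SW480, 7 genes reached the upper limit (20.8% of windows) and 8 at most 0.8 (13.2% of windows). The 7 high genes of SW480 were the 7 low genes of SNU-C1. At these genes each of these lines was the middle of the reference of the other, so the counts are not independent. Relative coverage of SW480 over all of 20q was 0.80, so its 8 low genes go with the level of the arm.

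Among the distal genes, HCC1954 read highest at AURKA, BMP7 and GNAS, with SNU-C1 close to it, and lowest of the lines at those near the end of the arm. AURKA, the mitotic kinase at chr20:54944445-54967393, read 2.05 in HCC1954, 1.90 in SNU-C1, 1.57 in OE33 and 1.23 in SW480. BMP7, a secreted growth factor, read 2.56 in HCC1954 and 2.54 in SNU-C1, and GNAS read 2.80 and 2.6. The lines with the highest values there were the breast line and a colorectal line, and SW480 was the lowest of all 4 at AURKA, BMP7 and GNAS. In relative coverage HCC1954 was at most 0.8 at 20 of 23 genes, against 26.4% of windows. Over like bins, several of these genes still read above 1 in HCC1954, as HNF4A at 1.20, NCOA3 at 1.38 and PTPN1 at 1.58. OE33 had 17 of 23 at or above the upper limit, against 21.9% of windows. Relative coverage over all of 20q was 0.53 in HCC1954 and 1.31 in OE33. Both counts thus go with the level of the arm and are not particular to the list. TCFL5, EEF1A2, PTK6 and SOX18 near the end of the arm lay between 0.46 and 0.56 in HCC1954, between 0.97 and 1.05 in SW480, between 1.39 and 1.59 in SNU-C1 and between 1.34 and 1.63 in OE33.

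On 20p a list of 18 genes had a median of 1.22 in SW480, 1.29 in SNU-C1, 1.70 in OE33 and 0.83 in HCC1954. JAG1, a ligand of Notch receptors, was the highest of the list in SNU-C1 (1.74), HCC1954 (1.87) and OE33 (1.93), and read 1.47 in SW480. The window from 10 to 12 Mb that holds JAG1 was also the highest 2-Mb window of 20p in SNU-C1, HCC1954 and OE33. In relative coverage JAG1 read 0.79, 0.98, 1.09 and 1.08 in SW480, SNU-C1, HCC1954 and OE33. The relation of this shared rise to sequence or mapping was not tested. FOXA2, a transcription factor of endoderm, was the highest in SW480 at 1.81 (1.8 and 1.79 in the replicates) and read 1.86 in OE33, 1.17 in SNU-C1 and 0.35 in HCC1954. CST3, which encodes the protease inhibitor cystatin C, was the lowest in SNU-C1 (1.14) and HCC1954 (0.34). OVOL2, a transcription factor that maintains epithelial identity, was the lowest in SW480 at 0.90 (0.91 in both replicates), while it read 1.41 in SNU-C1, 1.69 in OE33 and 0.50 in HCC1954. OVOL2 and its neighbor SNX5, a sorting nexin at 0.95 in SW480, lie at the step of SW480 at 17.96 Mb, where its lowest level begins. The windows of FOXA2 and CST3 held 15 and 11 usable bins, against 25 at JAG1, OVOL2 and SNX5.

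**Figure D3:**
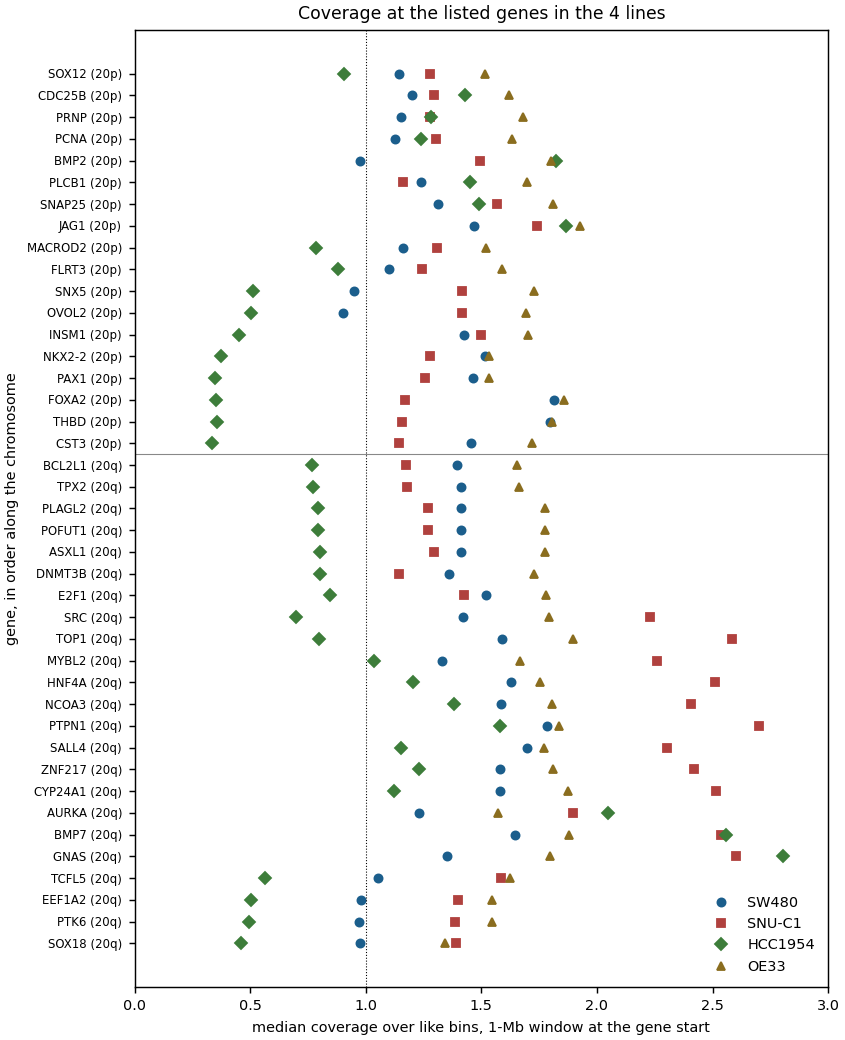
Median coverage over like bins in the 1-Mb window at the start of each listed gene (x axis) for the 18 genes of 20p and the 23 of 20q in their order along the chromosome (y axis), with a symbol for each line. SNU-C1 moves from 1.17 at BCL2L1 to 2.23 at SRC, and HCC1954 from 0.34 at CST3 to 2.80 at GNAS.

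Inside MACROD2, a very large gene on 20p (chr20:13976015-16033842, plus strand) that lies at a common fragile site, the colorectal maps lacked values that the other maps had. Of its 52 bins, 7 had no value in SNU-C1, all between 14.76 and 15.16 Mb, and 1 had none in SW480 and in both of its replicates, at 15.08 Mb. HCC1954 and OE33 had values in all 52. Coverage over like bins was under 0.5 in 10 bins of SNU-C1 between 14.76 and 15.28 Mb and in 5 bins of SW480 between 15.04 and 15.24 Mb, in the pooled map and in each replicate. In HCC1954 the 12 bins under 0.5 lay in another part of the gene, from 15.36 Mb to its end, within the low level that starts at 15.24 Mb. OE33 had none under 0.5, and its lowest bin of the gene read 1.21. A bin without a value may have had no reads or may have been filtered by the authors, and these cannot be told apart.

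A contact of SW480 on 20p joined the bins at 17.6 and 19.36 Mb, chr20:17600001-17640000 and chr20:19360001-19400000. They had been singled out as the pair with the highest ratio of SW480 to the other lines between 17 and 20 Mb, so its size is a description. O/E is the contact frequency over the mean for bins equally far apart on that map, here over squares of 3 by 3 bins. It was 12.5 in SW480, with 12.8 and 12.3 in replicates 1 and 2, and 0.62 in SNU-C1, 0.42 in OE33 and 0.75 in HCC1954. The squares held 569 read pairs in SW480 (95% exact Poisson interval 523 to 618), 31 in SNU-C1, 24 in OE33 and 8 in HCC1954. Intervals of read pairs given here cover counting error only. Both SW480 replicates lay above all other lines, and the other lines lay below the mean of their own maps at this distance of 1.76 Mb. The first end lies at DSTN, an actin-severing protein, RRBP1, a ribosome-binding protein of the endoplasmic reticulum, and BANF2, and the second inside SLC24A3, a sodium, potassium and calcium exchanger.

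The enriched contacts were not spread evenly around the pair but were highest in rectangles, with a sharp edge at the first end. The bins from 17.28 to 17.64 Mb met those from 19.36 to 20 Mb at an O/E of 5.81 in SW480 (5.71 and 5.87 in the replicates, 3821 read pairs), against 0.79 in SNU-C1, 0.91 in OE33 and 1.43 in HCC1954. Just past the first end, from 17.68 to 18.04 Mb, contacts with the same bins dropped to 0.83 in SW480 (0.77 and 0.90). Another strip joined 16.72 to 17.28 Mb with 19.2 to 19.32 Mb at 8.42 (7.96 and 8.86, 997 read pairs), where the other lines had 0.67 to 1.38. Between both rectangles, bins of 16.72 to 17.24 Mb met those beyond 19.36 Mb at only 0.91 (0.91 and 0.91). The strip held the further contact of 16.72 with 19.24 Mb, at an O/E of 6.86 and 172 read pairs. These bounds were set after the map was seen.

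Contacts fell with the summed distance from the pair of bins, outward on both sides. In SW480 the O/E was 7.40 within 200 kb, 6.0 from 200 to 400 kb, 2.78 from 400 to 600 kb and 1.59 from 600 to 800 kb, and it stayed at 1.39 and 1.46 up to 1200 kb. The replicates had 6.99 and 7.77 in the first of these steps. The other lines had 0.62 to 1.01 within 200 kb and 0.71 to 1.34 from 1000 to 1200 kb. Bins within 400 kb of the ends, on the stretch between them, met each other at 0.51 in SW480 (0.49 and 0.52), within the range of the other lines, 0.38 to 0.65. Enrichment went on across the second end. Bins within 400 kb before the first end met those before the second at 2.18 in SW480 (2.18 and 2.18, 809 read pairs). The other lines had 0.65 to 1.09 there.

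**Figure D4:**
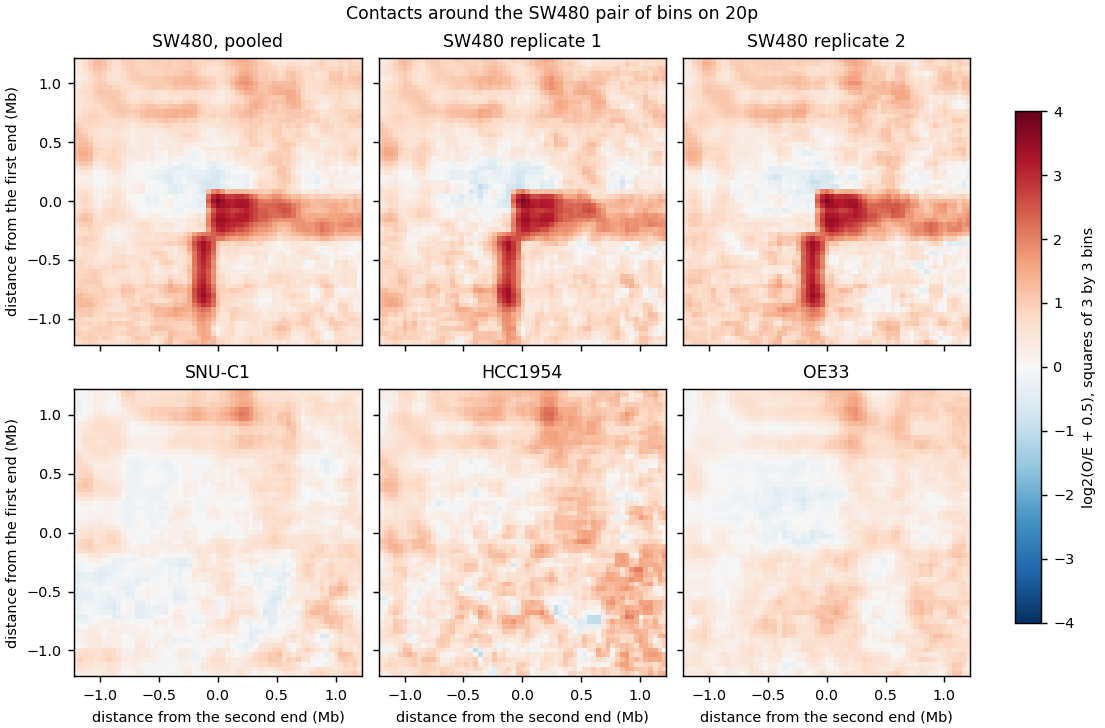
O/E of squares of 3 by 3 bins, as log2 after adding 0.5, around the pair of bins on 20p, with the distance from the second end (x axis) and the first end (y axis) in Mb, for the pooled SW480 map, its replicates and the other 3 lines. Red is high, and the 3 SW480 maps show the same rectangle (O/E 5.81 in the pooled map) and strip (8.42), which the other lines lack.

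Coverage was then read on either side of the contact. Over the Mb before the first end it was 1.13 in SW480 (1.15 and 1.14), between the ends 0.83 (0.83 and 0.84), and over the Mb after the second end 1.36 (1.36 and 1.37). The stretch between the ends was thus lower than either flank in SW480. SNU-C1 read 1.16, 1.41 and 1.52 in the same places, HCC1954 0.35, 0.43 and 0.48, and OE33 1.71, 1.56 and 1.70. The second end fell on the step at 19.36 Mb found in the coverage alone, and the first lay 0.36 Mb before the step at 17.96 Mb. Insulation at the second end, the log2 of contacts across a bin within 1 Mb over the mean of the chromosome, was 0.02 in SW480 (0.01 and 0.03) and 0.62, 0.90 and 0.49 in SNU-C1, HCC1954 and OE33. At the first end the scores were closer, -0.34 in SW480 (-0.33 and -0.35), -0.31 in SNU-C1, -0.12 in OE33 and -0.03 in HCC1954.

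A search of the whole chromosome, for squares with at least 30 read pairs and a ratio of 4 to the highest other line after adding 0.5 to each O/E, found 14 such contacts in SW480, 1 in HCC1954 and 0 in SNU-C1 and OE33. Of the 14, 12 lay within 20q and 2 within 20p, and 0 joined the arms. No share over all chromosomes and no alternative was computed for this search, and SW480 had the highest O/E within 20q of all lines, so the numbers of the lines are not compared. The O/E was at least 4 in both replicates for 13 of the 14, which is partly fixed by the choice, since the pooled map is the sum of these replicates. The highest such ratio was 26.3, between 54 Mb, where no protein-coding gene lies, and 62.76 Mb at OPRL1, MYT1 and NPBWR2, with an O/E of 24.1 (23.3 and 25.2) and 102 read pairs, against 0 to 0.44 in the other lines. The bins at 42.84 Mb, with JPH2, OSER1 and GDAP1L1, and at 48.44 Mb, with SLC9A8 and SPATA2, met at 16.4 (15.5 and 17.2, 352 read pairs), against 0.42 to 0.61. The bins at 33.04 Mb, with ITCH, a ubiquitin ligase, and at 45.24 Mb, with SLC13A3 and TP53RK, met at 13.7 (12.1 and 15.3, 133 read pairs), against 0.48 to 0.91. The contact that fell short in a replicate, between BCL2L1 and PTPN1, had 30 read pairs and an O/E of 2.86 and 6.16 in the replicates. Several contacts share an end, as 54 and 53.24 Mb with 62.76 Mb do, so the 14 are not independent of each other. The ends on 20q lay 3.44 Mb or more from any step in coverage of SW480, and those on 20p lay 0 to 1.24 Mb from one. Changes too small or short for a fitted step are not covered by this. Over the Mb on either side, SW480 read 1.70 and 1.27 at 50.92 Mb, but 1.46 and 1.47 at 36.96 Mb. At 50.92 Mb OE33 read 1.77 and 1.72 and SNU-C1 2.30 and 2.04. At the contacts named above, SW480 read 1.33 and 1.71 at 42.84 Mb and 1.46 and 1.81 at 48.44 Mb. SNU-C1 also rose there, from 2.26 to 2.61 and from 2.45 to 2.82. At 62.76 Mb SW480 read 0.97 and 1.26, SNU-C1 1.38 and 1.42 and OE33 1.53 and 1.15. SW480 read 1.17 and 0.996 at 54 Mb, 1.54 and 1.51 at 33.04 Mb and 1.48 and 1.49 at 45.24 Mb. Only 13 usable bins lay past 62 Mb, under the 20 of a level, so no step could be fitted at 62.76 Mb.

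In HCC1954 the search found the bins at 0.16 Mb, with the beta-defensin genes DEFB126 to DEFB132, and 11.72 Mb, an interval without protein-coding genes. They met at an O/E of 34.6 with 222 read pairs, against 1.28 in SW480 (1.84 and 0.70 in the replicates), 0.57 in SNU-C1 and 1.11 in OE33. The ends lay 1.04 and 0.56 Mb from the steps at 1.2 and 12.28 Mb that bound the level of 1.49.

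Counted over 36164 pairs of 200-kb blocks at least 2 Mb apart, with an O/E of at least 4 and the same ratio of 4 after adding 0.5, 17 pairs met the rule for SW480, 0 for SNU-C1, 1 for OE33 and 4 for HCC1954. As a share this was 0.0470% in SW480, against 0.0453% over all chromosomes, a share near the background. In the other lines the shares were 0.0111% in HCC1954 against 0.244%, 0.00277% in OE33 against 0.109%, and 0 pairs in SNU-C1 against 0.205%. Among the 23 chromosomes, chromosome 20 ranked 8 from the top in SW480, 21 in SNU-C1 and OE33 and 22 in HCC1954. Of the 17 pairs of SW480, 14 lay within 20q and 3 joined the arms, at 17.4 Mb with 52, 53 and 53.2 Mb (O/E 4.73, 5.92 and 4.59, with 32, 42 and 33 read pairs). The counts rest on the settings and on the maps used, at 25 for SW480 without replicate 1 and 21 without replicate 2. With the expected value of chromosome 20 alone they were 3 in SW480 and 17 in HCC1954, and without correction 5 in SW480, 1 in SNU-C1, 23 in OE33 and 39 in HCC1954.

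Contacts between the arms were compared at distances of at least 2 Mb. The O/E of pairs with a bin on each arm was 0.83 in SW480 (0.83 and 0.84), 0.71 in SNU-C1, 0.75 in OE33 and 0.55 in HCC1954. Within 20p it was 1.31 (1.30 and 1.31), 1.0, 0.93 and 0.92 in SW480, SNU-C1, HCC1954 and OE33, and within 20q 1.20 (1.20 and 1.20), 0.74, 0.71 and 0.77 in this order. With corrected values, the arms met less than either met itself in the 4 line maps. In SW480, SNU-C1, HCC1954 and OE33, contacts between the arms were 0.64, 0.71, 0.59 and 0.82 times those within 20p, and 0.70, 0.96, 0.77 and 0.97 times those within 20q. Among 17 autosomes with both arms measured, contacts between the arms ranked 7 from the top in SW480, 15 in SNU-C1, 12 in OE33 and 16 in HCC1954. By their values, the SW480 maps appear to have been corrected within each chromosome and the others over the genome, and the part of this in the levels cannot be told apart from the lines. Without correction, the values were 0.91 in SW480, 1.18 in SNU-C1, 1.73 in OE33 and 0.58 in HCC1954, and the order of the lines changed. With the expected value of chromosome 20 alone they were 0.79 in SW480, 0.91 in SNU-C1, 0.87 in OE33 and 0.87 in HCC1954. SW480 thus went from the highest line to the lowest. Contacts within the arms were not computed without correction.

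Compartments were read from the first eigenvector of the contacts of 200-kb blocks, computed for each arm, in units of its SD and positive on the gene-rich side. On 20q the eigenvectors of the lines were alike, with correlations across 162 blocks of 0.73 to 0.92, and on 20p less so, with 0.36 to 0.81 across 116 blocks. Between the SW480 replicates the correlation was 0.99 on 20p and 1.0 on 20q. By the median over pairs of lines, 20p was 5 from the lowest of 39 arms at 0.68, and 20q stood at 0.88, while the middle arm stood at 0.85. The lowest correlation was that of SW480 with HCC1954 on 20p, where the HCC1954 eigenvector accounted for 18.2% of the variance, against 28.5% to 40.4% in the other lines, and correlated with coverage at 0.73, against 0.14 to 0.35. The part of the coverage in that eigenvector was not tested. Blocks share neighbors and libraries, so these correlations describe the maps only.

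All 4 lines had the same sign in 70 of 116 blocks of 20p and 110 of 162 of 20q. Of these, 22 were positive and 48 negative on 20p, and 62 positive and 48 negative on 20q. The share of positive blocks on 20q and 20p was 59.3% and 44% in SW480 and 65.4% and 29.3% in HCC1954. It was 56.8% and 37.1% in OE33 and 42.0% and 41.4% in SNU-C1. Each arm had an eigenvector of its own, oriented and scaled apart, so these shares do not rank the arms. SNU-C1 was the line with the smallest positive share on 20q. Of the 21 genes of the 20q list with a value, 19 were positive in SW480, 18 in HCC1954, 16 in OE33 and 14 in SNU-C1. The share over all genes of 20q was not computed. As the eigenvector was turned to be positive where genes are denser, these counts are no result about the list. SRC, HNF4A, NCOA3, a coactivator of steroid receptors, and PTPN1 were among those positive in all 4 lines. AURKA was negative in all 4, between -0.92 and -1.29, and so was CYP24A1, between -0.27 and -0.69.

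Blocks with a sign opposite to all 3 other lines, beyond 0.5 on both sides, numbered 9 of 278 in SNU-C1, or 3.24% against 1.06% over the autosomes. SW480 and HCC1954 had 2 each, or 0.719% against 0.48% and 1.34%, and OE33 had 0 against 0.112%. In SNU-C1 the 4 blocks from 18.8 to 19.6 Mb, which include SLC24A3, were positive. At 19 Mb the value was 1.02 in SNU-C1, -1.16 in SW480 (-1.28 and -1.0), -1.57 in OE33 and -1.44 in HCC1954. Coverage from 17.96 to 19.36 Mb was low in SW480 (0.81) and HCC1954 (0.41), against 1.39 in SNU-C1 and 1.53 in OE33. The part of coverage in this contrast was not tested. The other 5 lay on 20q and were negative in SNU-C1. The block at 46.4 Mb with SULF2, a heparan sulfate sulfatase, read -0.73 in SNU-C1 and 1.08, 1.0 and 0.92 in SW480, HCC1954 and OE33. The block at 50 Mb with NFATC2, a transcription factor of T cells, read -1.06 against 0.72, 0.79 and 0.82. The block at 50.4 Mb with SALL4, a transcription factor of embryonic stem cells, read -0.67 against 0.62 (0.70 and 0.52), 0.94 and 0.63. The SW480 replicates shared the sign of the pooled map in each of these named blocks. With a single eigenvector for the whole chromosome, 2 such blocks were found in SNU-C1, and without correction 24.

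In SW480 the opposite blocks were those at 20.8 Mb (1.10, with 1.05 and 1.06 in the replicates, against -0.57 to -1.81) and 22.2 Mb (1.13, with 0.79 and 1.15, against -0.60 to -1.92), and no protein-coding gene lies in either. The block at 21 Mb with KIZ, a centrosomal protein, had opposite signs in different lines, at 1.35 in SW480 (1.30 and 1.41), 0.37 in SNU-C1, -1.39 in OE33 and -2.02 in HCC1954. In HCC1954 the blocks were at 19.8 Mb with RIN2 and NAA20 (-0.69 against 0.69 to 1.20) and at 39 Mb, without protein-coding genes (0.93 against -1.13 to -1.20). Without correction, 0 such blocks were found in SW480 and 31 in HCC1954, and with 400-kb blocks 1 in SW480.

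**Figure D5:**
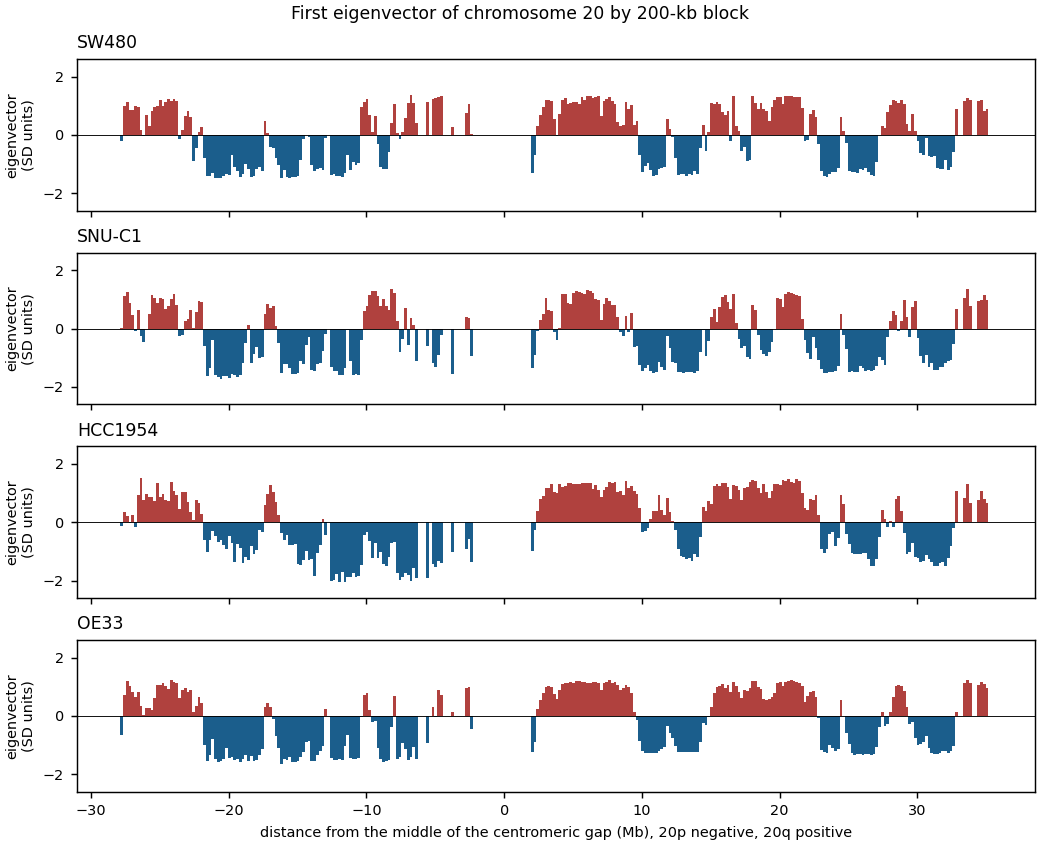
First eigenvector of each 200-kb block in SD units (y axis, positive on the gene-rich side in red, negative in blue) against the distance from the middle of the centromeric gap in Mb (x axis), for the 4 lines. The pattern on 20q is alike in all lines, with SNU-C1 below -0.5 in 5 blocks where the others are above 0.5. HCC1954 is negative over the low-coverage part of 20p next to the gap.

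TAD boundaries were called as minima of the insulation score, with a window of 1 Mb. SW480 had 62 boundaries on chromosome 20, SNU-C1 61, HCC1954 62 and OE33 56. Within 2 bins, 59 of 62 boundaries of SW480 replicate 1 were present in replicate 2, and 59 of 60 the other way. In SW480 35 boundaries, or 56.5%, were present in all 4 lines, against 57.7% over the autosomes, and the figures were 36 (59.0% against 55.6%) in SNU-C1, 35 (56.5% against 56.7%) in HCC1954 and 35 (62.5% against 61.9%) in OE33. Boundaries in no other line numbered 5 (8.06% against 7.03%) in SW480, 5 (8.20% against 10.1%) in SNU-C1, 7 (11.3% against 10%) in HCC1954 and 4 (7.14% against 9.8%) in OE33. The shares lay above the background in some lines and below it in others. With a delta of 120 kb instead of 200 kb, 54 boundaries were present in all 4 lines. The totals were then 81, 87, 77 and 73 in SW480, SNU-C1, HCC1954 and OE33. Boundaries of SW480 alone numbered 3 to 4 without a replicate, and those of SNU-C1 alone 3 with a 480-kb window and 8 when shared within 1 bin. Boundaries in all 4 lines, which had to pass the minimum strength in each, had a median strength of 0.73 in SW480 against 0.29 for those of SW480 alone, and 0.76 against 0.44 in SNU-C1, 0.77 against 0.63 in HCC1954 and 0.76 against 0.65 in OE33. A gene start lay within 1 bin of 65.7% of the 35 shared boundaries and of 51.8% of all usable bins.

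The 3 strongest shared boundaries, by the lowest strength among the lines, lay at 6.08 Mb in FERMT1, an adaptor of integrins, at 50.8 Mb in ZFP64, a zinc finger protein, and at 42.04 Mb at SRSF6, a splicing factor, and L3MBTL1, a chromatin protein. Their strengths were 1.4, 2.11, 1.68 and 1.74 at FERMT1, 1.74, 1.246, 1.78 and 1.95 at ZFP64 and 1.31, 1.22, 1.59 and 1.65 at SRSF6, in SW480, SNU-C1, HCC1954 and OE33. Insulation scores at FERMT1 ran from -0.92 in SW480 to -1.22 in OE33. Of the boundaries in a single line, the strongest was 1.28 in OE33, at 48.56 Mb with SPATA2, RNF114 and SNAI1, a transcription factor of epithelial-mesenchymal transition. There the score was -1.25 in OE33 and -0.59, -0.88 and -0.70 in SW480, SNU-C1 and HCC1954. HCC1954 alone had a boundary at 60.48 Mb with CDH4 and TAF4 (strength 0.86), 0.32 Mb beyond its fall in coverage at 60.16 Mb. SW480 alone had a boundary at 35.72 Mb with RBL1, a relative of the retinoblastoma protein, and MROH8 (0.77), found in both replicates, yet its score of -0.41 was higher than that of the other lines, -0.61 to -0.96. SNU-C1 alone had a boundary at 20.4 Mb in RALGAPA2 (0.67), where its insulation score of 0.05 was also that of SW480, with 0.46 in HCC1954 and 0.16 in OE33.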

How the data were processed

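In situ Hi-C of SW480, SNU-C1, HCC1954 and OE33 was analysed from 6 maps. Per the labels and methods, chromatin was cut with MboI, reads were aligned to hg19 with BWA, duplicates were removed with Picard, and matrices were corrected iteratively. The sources used here give neither versions nor the handling of sparse bins. The authors deposited a signal, the contact frequency, after correction, between 40-kb bins. By the values, SW480 appears to have been corrected within chromosomes and the other 3 lines over the genome.

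Read pairs were recovered by fitting a factor to each bin (45 iterations, pairs at least 5 Mb apart). The depth within chromosomes was 133391984 read pairs in SW480 (65990548 and 67372971 in the replicates), 115014332 in SNU-C1, 89418519 in OE33 and 93501174 in HCC1954. The expected value was the mean at each distance over the usable bins of all chromosomes, smoothed beyond 5 Mb over 10% of the distance. Coverage classes were deciles of MboI sites and of GC content. Insulation used a 1-Mb window, a delta of 200 kb and a minimum strength of 0.1. Gene positions came from GENCODE lifted to GRCh37, whose lengths equalled those of the bin table for 23 of 23 chromosomes. Named genes are fixed lists for each arm, the genes at the ends of contacts, and those in the most different blocks and strongest boundaries. The chromosome, the gene lists and the thresholds were chosen with earlier results of these data known. The whole-chromosome contact search, the coverage steps and the rectangles were added after seeing the data. With 1 map for a line no test was run. The calculations were tested on simulated data. NumPy 2.4.6, pandas 2.3.3, SciPy 1.17.1 and Numba were run under Python 3.11.15.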

Additional observations from a re-analysis of the deposited data

Results flagged for a closer look

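By the arm medians over like bins, coverage of 20q over 20p lay just under 1 in HCC1954 and above 1 in the other lines. It was 0.97 in HCC1954, and 1.18 in SW480 (1.19 and 1.17 in the replicates), 1.58 in SNU-C1 and 1.04 in OE33. The differences were not tested, since HCC1954, SNU-C1 and OE33 have 1 map each. Against the other lines instead of like bins, 20q over 20p was 0.92 in SW480, 1.33 in SNU-C1, 0.95 in OE33 and 0.67 in HCC1954, so the side of 1 depends on the reference for SW480 and OE33. The HCC1954 value also leaves out the 65 bins of 20p and 25 of 20q that were low in that line alone. The medians of HCC1954 over 2-Mb windows were 0.85 on 20p and 0.94 on 20q, which turns its side of 1.

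Read pairs between chromosomes entered the results above only as an alternative for arm coverage. The SW480 maps hold few, 25854 with an end on chromosome 20, yet 5080 of these led to chromosome 5 (2531 in replicate 1 and 2547 in replicate 2), which is 3.02 times the median chromosome per bin. By this measure the highest partner was chromosome 7 in SNU-C1 (3.38 times, 342903 read pairs), chromosome 9 in HCC1954 (4.19 times, 207279) and chromosome 17 in OE33 (2.49 times, 287584). The 1-Mb blocks with the most joined 17 Mb on chromosome 20 with 94 and 93 Mb on chromosome 5 (74 and 50 read pairs) and 19 Mb with 94 Mb (49). The blocks at 17 and 19 Mb hold the ends of the SW480 contact on 20p. In SNU-C1 the block at 35 Mb, where its coverage rises from 1.30 to 2.34, had 5421 read pairs with chromosome 7 at 2 Mb, against a median of 8 over block pairs with a value. In HCC1954 the block at 59 Mb had 13643 with chromosome 12 at 45 Mb and the block at 54 Mb 10790 with chromosome 12 at 40 Mb, against a median of 5, near both ends of its level of 2.65. The highest block pair of chromosomes 20 and 11 in HCC1954, 42 Mb with 73 Mb, had 1287. In OE33 the highest, 34 Mb with chromosome 17 at 39 Mb, had 814 against a median of 21, and the next highest led to the same block of chromosome 17. What these pairs share with the coverage steps was not tested.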

How the results depend on the processing

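The ratio of the SW480 contact on 20p ran from 6.44 to 20.1 over its 6 alternatives, in which the pair of bins was chosen anew, so that its direction was fixed by the choice. Of the relative arm coverages, 20q of SW480 was 0.87 with the mean over bins and turned to 1.41 against like bins of its own map. Against like bins, 20p of SNU-C1 was 1.36, 20p of HCC1954 turned to 1.03 and 20q of HCC1954 was 1.0. A minimum coverage of 0.5 gave 0.98 for 20p of HCC1954. Adding read pairs between chromosomes gave 1.19 for 20q of SNU-C1 and 1.20 for 20q of OE33, which ends both calls. SW480 holds few such pairs, so the lines are measured unlike there. Against like bins, adding them gave 1.4 and 2.31 for 20p and 20q of SNU-C1, 1.14 and 1.07 for HCC1954 and 1.71 and 1.73 for OE33.

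The counts of block pairs in 1 line were 1, 1 and 0 with 400-kb blocks in SW480, HCC1954 and OE33, and 3 and 17 in SW480 and HCC1954 with the expected value of chromosome 20. In the order SW480, SNU-C1, HCC1954, OE33 they were 5, 1, 39 and 23 without correction and 38, 2, 10 and 2 with a ratio of 3. Leaving out SW480 replicate 1 or 2 gave 25 or 21 in SW480, and 0 to 1 in SNU-C1 and in OE33. Opposite compartment blocks numbered 1, 4 and 0 in SW480 and 5, 2 and 24 in SNU-C1 with 400-kb blocks, 1 eigenvector and no correction, 31 in HCC1954 without correction and 1 in OE33 with 1 eigenvector. A delta of 120 kb gave 54 boundaries in all 4 lines, with totals of 81, 87, 77 and 73 for SW480, SNU-C1, HCC1954 and OE33. Boundaries of SNU-C1 alone numbered 3 with a 480-kb window and 8 when shared within 1 bin, and those of SW480 alone 3 to 4 without a replicate. Contacts between the arms, in the same order of lines, had an O/E of 0.91, 1.18, 0.58 and 1.73 without correction and 0.79, 0.91, 0.87 and 0.87 with the expected value of chromosome 20.

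No paired analysis was possible because only SW480 has replicate maps. Depth limits the far contacts, some of which rest on 30 read pairs, and HCC1954 had the fewest read pairs on chromosome 20, 2414 in its median bin.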
